A study of Homo sapiens with 8 samples.

Results

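The p53 pathway genes described here are 9 named genes, MDM2, CDKN1A, GADD45A, BBC3, BAX, FAS, SESN1, ZMAT3 and RRM2B, out of 20033 protein-coding genes of GENCODE 44 on the main chromosomes. They were chosen by name, and the peaks of each are those whose summit, the base of highest signal, lay in the gene body or within 20 kb of it. All 9 genes were found in the annotation and all 9 had at least 1 peak, giving 46 peaks in all. The study comprised 8 bulk ATAC-seq libraries of wild-type HepG2, a human liver cancer cell line, fixed with 0.1, 0.5, 1 or 5% formaldehyde (FA) and then cryopreserved or flash-frozen. Values come from the peak list of 1 library, fixed with 0.1% FA and cryopreserved, and the other 7 libraries were not analysed here. ATAC-seq uses the transposase Tn5 to cut accessible DNA, so a peak marks a stretch that was cut more often than its surroundings, not expression of a gene. No agent that activates p53 is named for these cells, and with 1 library there was no replicate and no test between conditions.

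p53 is a transcription factor that is stabilised after DNA damage and other stress, and it then activates genes that stop the cell cycle, repair DNA, supply nucleotides or start apoptosis. MDM2, a ubiquitin ligase and itself a p53 target, marks p53 for degradation and so closes a feedback loop. p53 binds a response element made of 2 adjoining 10-base units, each with a central C and G, and many of its target sites lie near a promoter or in an early intron of the target gene.

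Fold enrichment, the ratio deposited for each peak, is the signal at the summit over the local background of the same library. The peak caller is assumed to add 1 fragment to both before taking the ratio. Folds on a low background are therefore well below the plain ratio of fragments to background. The number of fragments at each summit was worked out from the fold together with the -log10 p, and all 46 member peaks gave a whole number within 0.01 fragments, against 99.7% of all peaks. An exact Poisson interval of that number at a 95% level was carried over to the fold, with the local background held fixed. It covers counting error at the summit only, and the error of the background is left out. For 2 of the 46 peaks, 1 in the BAX flank and 1 in SESN1 intron 8, a second whole number also fitted. The liver origin of the cells was checked with marker genes. Of 18 hepatocyte markers 17 had a peak at the transcription start site (TSS), against 61.0% of all protein-coding genes. ALB was the hepatocyte marker with none. Of 16 markers of other cell types 4 had one, LYZ, GFAP, CD68 and RELN. Among markers with a TSS peak, the median fold was 15.6 for hepatocytes and 14.3 for the other cell types.

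**Figure D1:**
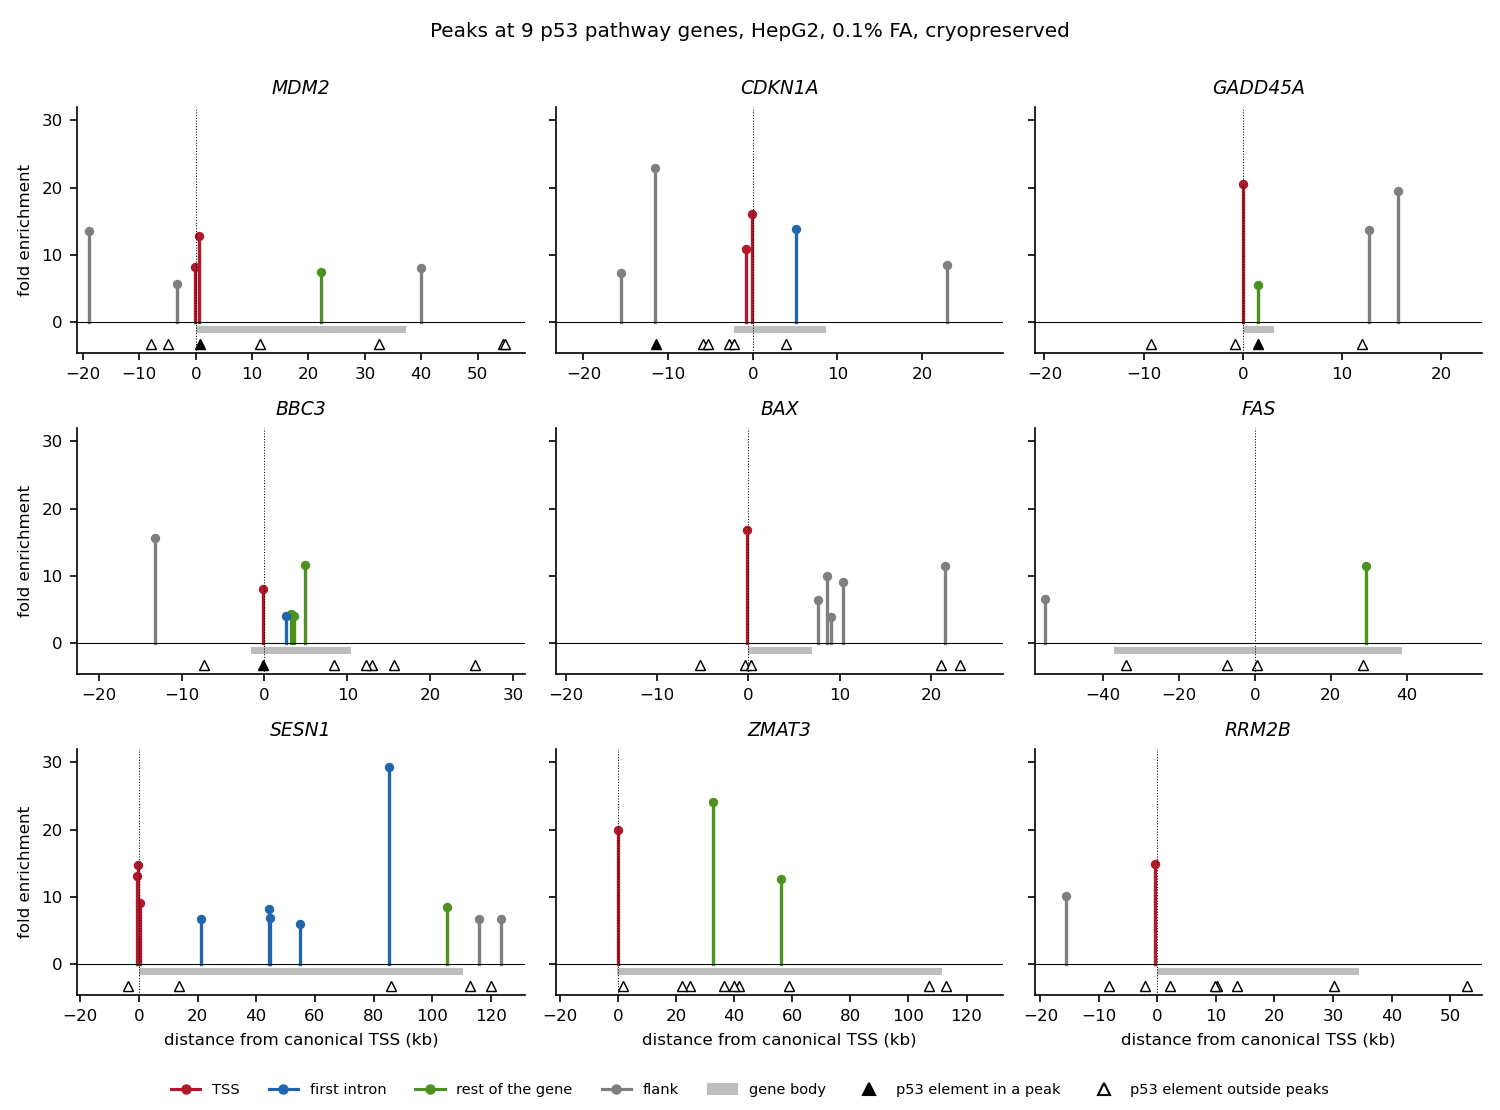
Each panel shows 1 gene, with distance from its canonical TSS in kb along the direction of transcription on the x axis and fold enrichment on the y axis. Stems are peaks coloured by position, grey bars are gene bodies, and triangles are p53 elements, filled where they lie inside a peak. The highest stem of SESN1 stood 85.2 kb after its canonical TSS with a fold of 29.3, and FAS had no stem at its TSS.

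Of the 9 p53 pathway genes, 8 had a peak within 1000 bp of the canonical TSS (88.9%, exact binomial interval 51.8 to 99.7%), and the share over all protein-coding genes was 61.0%. FAS, the death receptor, was the 1 gene with none. The GC content within 500 bp of the TSS of the 9 genes was between 61.7 and 73.5%, and 76.2% of the 8094 protein-coding genes in that range had a TSS peak. The members' interval holds both of these shares.

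Peaks inside the genes were spread unevenly over the members. In the first intron of the canonical transcript, counted outside the TSS window, 3 of 9 genes had a peak (all protein-coding genes: 17.4%), and these were CDKN1A, BBC3 and SESN1, with 7 peaks of which 5 were in SESN1. In the rest of the gene 6 of 9 had a peak (all protein-coding genes: 43.2%), with 9 peaks. In the 20 kb flanks 8 of 9 had one (all protein-coding genes: 72.5%), with 18 peaks, and ZMAT3 had none there. Counting any position, 9 of 9 genes had a peak, against 88.3% of all protein-coding genes. The exact binomial intervals of the members were wide and held the share of all genes at each of these positions.

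**Figure D2:**
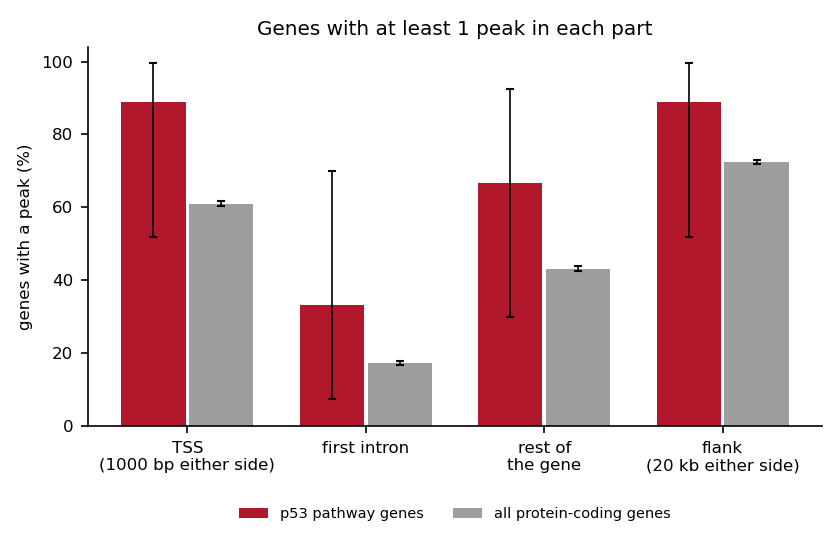
Bars give the percentage of genes with at least 1 peak at each position (x axis), for the p53 pathway genes in red and all protein-coding genes in grey, with exact binomial intervals at a 95% level. The TSS bars stand at 88.9% and 61.0%, and the red interval, 51.8 to 99.7%, holds the grey value.

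The number of peaks per gene ran between 2, at FAS and RRM2B, and 11, at SESN1. The median was 6 for the members and 4 for all protein-coding genes, and the mean was 5.11 for the members and 4.08 for all. Scaled to the length of gene and flanks, the median was 7.76 peaks per 100 kb at the members and 4.14 over all protein-coding genes. The quartiles were 2.69 to 11.6 at the members and 1.85 to 7.35 over all, and these ranges overlapped. BAX was the densest member, with 12.8 peaks per 100 kb, and FAS the sparsest, with 1.73. The peaks covered 1.40% of the 763 kb of member loci. Of the 18 flank peaks, 5 lay at the TSS of another gene, so which gene they belong to cannot be told from position.

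The order of the members by the highest fold at their TSS was GADD45A with 20.6, ZMAT3 with 19.95, BAX with 16.8, CDKN1A with 16.1, RRM2B and SESN1 with 14.8 each, MDM2 with 12.8 and BBC3 with 8.14. The median over the 8 genes was 15.4, and over the 12229 protein-coding genes having a TSS peak it was 17.9. Only GADD45A and ZMAT3 lay above that median. All 7 pairs of neighbours in this order had overlapping counting intervals, and 6 of the 28 pairs of genes did not overlap: BBC3 lay below GADD45A, ZMAT3, BAX, CDKN1A and RRM2B, and MDM2 lay below GADD45A. The order of the middle genes is therefore not resolved at this depth.

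**Figure D3:**
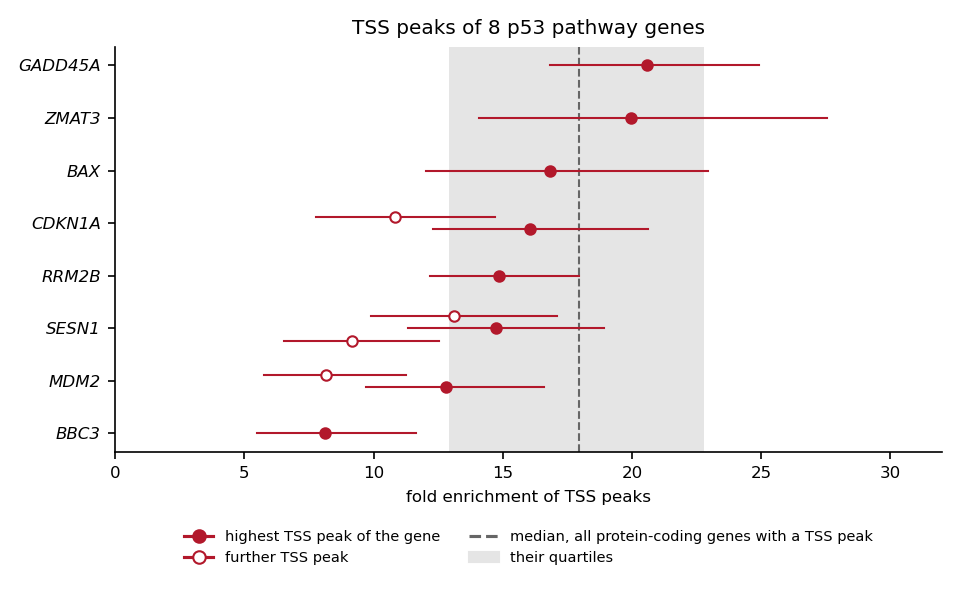
Fold enrichment (x axis) of the 12 TSS peaks of 8 p53 pathway genes (y axis), with filled points for the highest peak of a gene, open points for further TSS peaks and lines for intervals from the Poisson counting error at a 95% level. The dashed line, 17.9, is the median of all protein-coding genes having a TSS peak, and the grey band their quartiles, and the filled points of BBC3 at 8.14 and, narrowly, MDM2 at 12.8 lie left of the band.

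The TSS peaks of these genes had a higher median of fragments and stood on a high background. Over 12 peaks the median was 46 fragments at the summit, against 37 over 13578 peaks at a protein-coding TSS. The quartiles overlapped, with 36.5 to 59.25 for the members and 22 to 59 over all. The 12 peaks had a median local background of 3.12 fragments, against 1.47 over all TSS peaks, and 10 of the 12 lay above 1.47. The 12 peaks come from 8 genes, and peaks of the same gene are not independent. Those of MDM2, for 1, had backgrounds of 3.41 and 3.37 fragments. The genes below 1.47 were BAX, with 1.32, and ZMAT3, with 0.804. With a median fold of 13.9 against 15.6, the members thus had more fragments and a lower ratio by median. The part that copy number, GC content or neighbouring open chromatin has in this background was not tested. For the 34 peaks outside the TSS windows the median was 17.5 fragments with a fold of 8.36, against 14 fragments and a fold of 9.88 over 46896 peaks. Of the 34, 10 rested on 11 fragments or fewer, and their lower quartile was 11 fragments, against 9 over the 46896.

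**Figure D4:**
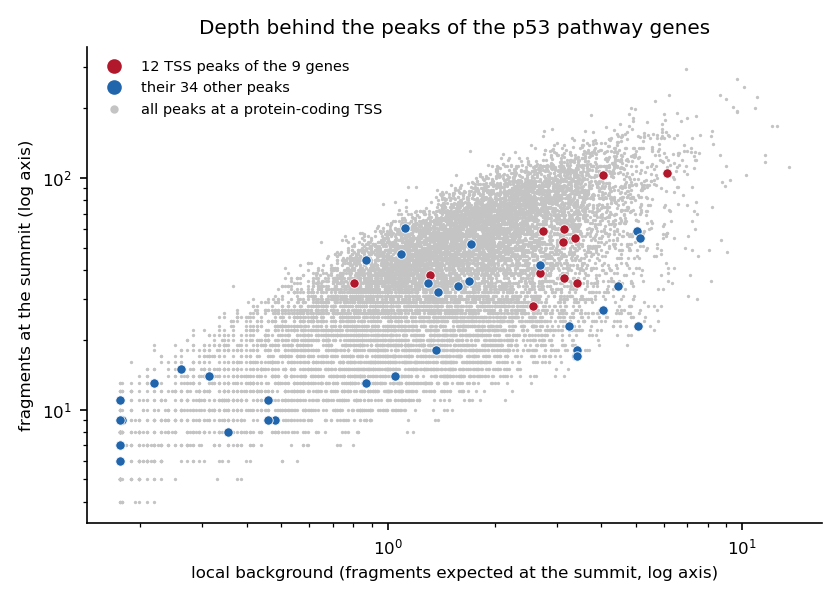
Fragments at the summit (y axis, log) against the local background, in fragments expected at the summit (x axis, log), for the 12 TSS peaks of the 9 genes in red, their 34 other peaks in blue and all peaks at a protein-coding TSS in grey. Of the red points, 10 lie right of a background of 1.47, the median of the grey ones, and points of the same gene are not independent.

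MDM2 (chr12:68808177-68845544, plus strand, GRCh38 as in all positions here) had 6 peaks, and its TSS window held 2 of them, 434 bp apart. The first had its summit 189 bp upstream of the canonical start and a fold of 8.16 (interval 5.75 to 11.3, 35 fragments). The second, at chr12:68808655-68809047, had its summit 670 bp into the gene, in intron 1, and a fold of 12.8 (interval 9.70 to 16.6, 55 fragments). The intron 1 peak was the higher by value, and the intervals overlapped. MDM2 has a second promoter that p53 is known to activate. Of its 36 annotated transcripts, 20 start between 1034 and 1049 bp after the canonical start, downstream of the intron 1 peak. Other protein-coding transcripts start inside that peak, between 825 and 847 bp after the canonical start. The intron 1 peak holds a p53 element whose centre lies 86 bp downstream of the summit and 756 bp after the canonical start. The element is thus upstream of the starts inside the peak, and 278 bp upstream of the start at 1034 bp. The other peaks of MDM2 were a distal one at -18.9 kb with a fold of 13.6 (34 fragments), 1 at -3264 bp with a fold of 5.66, 1 in intron 8 with a fold of 7.498 and 1 downstream of the gene with a fold of 8.02. The peak at -3264 bp lay 40 bp from the start of an unnamed lncRNA.

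Across the 9 loci 4 p53 elements lay inside a peak, at MDM2, CDKN1A, GADD45A and BBC3. They are shown because they are the stretches where a p53 element and open chromatin coincide at these genes. Each is printed 5′ to 3′ on the strand of its gene, with the 20-base element in capitals and 10 bases on either side.
MDM2, intron 1, chr12:68808913-68808952, plus strand: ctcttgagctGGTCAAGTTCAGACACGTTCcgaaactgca
CDKN1A, upstream, chr6:36667248-36667287, plus strand: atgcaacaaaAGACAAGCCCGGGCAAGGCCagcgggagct
GADD45A, intron 3, chr1:67686765-67686804, plus strand: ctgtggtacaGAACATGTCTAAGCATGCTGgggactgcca
BBC3, upstream of the canonical start, chr19:47231310-47231349, minus strand: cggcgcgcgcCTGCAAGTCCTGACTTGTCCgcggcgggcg
Compared with the consensus, the elements of CDKN1A and GADD45A had 1 mismatch each, that of MDM2 had 2 and that of BBC3 had 3.

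CDKN1A (chr6:36676460-36687337, plus strand), which encodes the cyclin-dependent kinase inhibitor p21, had 6 peaks, and the highest was not at its TSS. Its TSS peaks had summits at -60 bp, with a fold of 16.1 (interval 12.3 to 20.6, 59 fragments), and at -774 bp, with a fold of 10.8 (interval 7.78 to 14.7, 39 fragments). Both summits also lay within 1000 bp of the start of DINOL, a lncRNA at the same locus. A peak at -11.5 kb had a fold of 22.9 (interval 17.0 to 30.4, 47 fragments), which was 1.43 times the TSS value with overlapping intervals, and it stood above 96.1% of all peaks away from a TSS. Its background was 1.09 fragments, against 2.74 at the TSS peak, and the part of that difference in the ratio was not tested. The upstream peak is 216 bp wide and its p53 element is centred 42 bp downstream of the summit. The sequence of the whole peak, with the element in capitals, shows where the element sits in it.
CDKN1A upstream peak, chr6:36667142-36667357, plus strand: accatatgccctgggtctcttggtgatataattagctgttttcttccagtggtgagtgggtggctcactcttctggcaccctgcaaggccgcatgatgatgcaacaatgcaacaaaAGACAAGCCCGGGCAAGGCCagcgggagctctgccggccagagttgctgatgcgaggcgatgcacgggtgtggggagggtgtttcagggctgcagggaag
A peak in intron 1, at +5090 bp, had a fold of 13.8 (32 fragments). The remaining flank peaks had folds of 7.34 at -15.5 kb and 8.49 at +23.01 kb, and the downstream one rested on 9 fragments.

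A second p53 element of CDKN1A, with 2 mismatches, lay at -2256 bp beside the annotated start of the transcript CDKN1A-208, and no peak reached it. The nearest summit was 1482 bp away. Transcripts CDKN1A-204, CDKN1A-205 and CDKN1A-208, which start about there, had no summit nearer than 1412 bp. Open chromatin was thus called at the distal element and not at this one in the same library, and occupancy by p53 was not measured.

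GADD45A (chr1:67685201-67688334, plus strand), a small stress sensor that binds cell cycle and repair proteins, had 4 peaks. At 69 bp into exon 1, in the untranslated part, lay a peak with a fold of 20.6 (interval 16.8 to 24.9, 103 fragments), the highest TSS value of the 9 genes and above 64.2% of the protein-coding genes that had one. A peak in intron 3, at chr1:67686588-67686824, had a fold of 5.54 (interval 3.72 to 7.96, 27 fragments). It is a weak peak, at 0.269 times the TSS value with intervals that did not overlap, and its background was 4.06 fragments, close to the 4.05 of the TSS peak. Its summit fell on the centre of the p53 element, with 0 bp between them.
GADD45A intron 3 peak, chr1:67686588-67686824, plus strand: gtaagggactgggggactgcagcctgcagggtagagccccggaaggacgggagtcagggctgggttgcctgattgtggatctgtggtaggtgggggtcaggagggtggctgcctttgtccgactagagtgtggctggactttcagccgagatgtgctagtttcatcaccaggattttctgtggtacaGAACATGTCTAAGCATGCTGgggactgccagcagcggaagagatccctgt
Downstream of GADD45A lay 2 peaks, at +12.7 kb with a fold of 13.7 (36 fragments) and at +15.7 kb with a fold of 19.5 (52 fragments). Both exceeded the intron 3 peak, and neither holds a p53 element.

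BBC3 (chr19:47220822-47232766, minus strand), which encodes the BH3-only apoptosis inducer PUMA, had the lowest TSS fold of the 8 genes. The peak, with its summit 206 bp upstream of the canonical start, had a fold of 8.14 (interval 5.50 to 11.6, 28 fragments), and only 7.16% of the protein-coding genes that had a TSS peak lay below it. This peak holds the 3-mismatch p53 element, 76 bp from its summit. The GC content around its TSS was 73.5%, the highest of the 9 genes, and the part of GC content in the low fold was not tested. Inside the gene BBC3 had 4 further peaks. Those at +2650, +3169 and +3517 bp had folds of 4.08, 4.31 and 4.10 on 17 or 18 fragments, which put each of them above at most 0.825% of all peaks away from a TSS. The peak in intron 3 at +4939 bp had a fold of 11.7 (42 fragments) and lay beside MIR3190 and MIR3191. The flank peak of BBC3, at -13.2 kb, had a fold of 15.7 (35 fragments) and lay 105 bp from the start of an unnamed lncRNA. Both exceeded the TSS peak by value, with intervals that overlapped that of the TSS peak.

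BAX (chr19:48954815-48961798, plus strand), the pore-forming effector of mitochondrial apoptosis, had 1 peak at the TSS and none elsewhere in the gene. Its TSS peak had a fold of 16.8 (interval 12.04 to 22.95, 38 fragments), with the summit 99 bp upstream. All 5 other peaks lay downstream, between +7.60 and +21.5 kb, with folds between 3.95 and 11.4. The peak at +10.4 kb (fold 9.14, 55 fragments) lay 68 bp from the TSS of FTL, the ferritin light chain gene, and 2 more lay at the start of an unnamed lncRNA.

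FAS (chr10:88953813-89029605, plus strand), the death receptor of the extrinsic apoptosis pathway, had its nearest summit 29387 bp from its canonical start, and its TSS lay in a stretch of 84.5 kb with no peak. Of the 7804 protein-coding genes lacking a TSS peak, 37.2% had their nearest summit still farther away. Its GC content at the TSS, 64.3%, was within the range of the other members. FAS had 2 peaks: 1 at +29.4 kb with a fold of 11.5 (interval 6.497 to 19.05, 13 fragments) and 1 at -55.3 kb, upstream of its first annotated transcript, with a fold of 6.64 (8 fragments). No annotated start among its 61 transcripts had a peak nearer than 7503 bp. A peak list gives no value where no peak was called, so how far the signal at the FAS start lies below the threshold is not known.

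ZMAT3 (chr3:178960121-179072215, minus strand), a zinc-finger RNA-binding protein induced by p53, had 3 peaks in a gene of 112 kb. The TSS peak, with its summit 31 bp upstream, had a fold of 19.95 (interval 14.1 to 27.5, 35 fragments) on the lowest background of the TSS peaks, 0.804 fragments. A peak in intron 2, at +32.7 kb, had a fold of 24.1 (interval 17.7 to 32.2, 44 fragments) and stood above 97.1% of peaks away from a TSS. The peak at +56.1 kb had a fold of 12.7 on 15 fragments. Intron 2 therefore held the highest value of this gene, with an interval that overlapped that of the TSS.

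SESN1 (chr6:108984309-109094846, minus strand), a stress-induced inhibitor of mTORC1 signalling, had the most peaks, 11, and the highest peak of all 46. The TSS window held 3 peaks with folds of 14.8 (60 fragments), 13.1 (53 fragments) and 9.17 (37 fragments), all also within 1000 bp of the TSS of CEP57L1, so the 3 peaks cannot be assigned to 1 of the 2 genes. The highest peak, at chr6:109009426-109009743 in intron 1, 85.2 kb after the canonical start, had a fold of 29.3 (interval 22.5 to 37.5, 61 fragments). It stood above 98.7% of all peaks and above 99.4% of those away from the canonical TSS of a protein-coding gene. Its summit lay 44 bp upstream of the start of a shorter annotated protein-coding transcript. The fold there was 1.98 times that at the canonical TSS, and the 2 intervals did not overlap. The background was 1.12 fragments at the inner peak and 3.13 at the canonical one, while the summits held about as many fragments. The other 4 peaks of intron 1 were weak, with folds between 5.95 and 8.22 on 6 to 11 fragments.

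RRM2B (chr8:102204502-102238961, minus strand), the p53-inducible small subunit of ribonucleotide reductase, had a single TSS peak and 1 flank peak. The TSS peak was 938 bp wide, wider than 99.97% of all peaks, and held 105 fragments at its summit, the most of any member. Its fold was 14.8 (interval 12.2 to 17.9) on a background of 6.14 fragments, the highest of the 46 peaks. The summit lay 436 bp upstream of the RRM2B start. The flank peak at -15.6 kb had a fold of 10.2 on 11 fragments.

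A p53 element, allowing up to 3 mismatches outside the core C and G of both units and searched on both strands, lay within 100 bp of the summit in 4 of 46 member peaks (8.70%, exact binomial interval 2.42 to 20.8%), against 1.13% of 60474 peaks. At the TSS it was 2 of 12 member peaks, against 0.751% of all, and away from the TSS 2 of 34, against 1.24%. These genes are known for such elements, so the share describes how many of them lay in open chromatin of this library and is not independent of why the genes were named. No test was made of it.

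In the 9 loci with their flanks, 55 elements were found and 4 lay wholly inside a peak (7.27%), against 0.608% of 84407 elements in all protein-coding loci. With at most 1 mismatch it was 2 of 4, against 1.13% of 1862. Of elements with 2 mismatches 1 of 9 was in a peak, against 0.775% of 10712, and of those with 3 mismatches 1 of 42, against 0.569% of 71833. Allowing a spacer of 0 to 3 bases between the units gave 144 elements with 4 in a peak, against 0.699% in all protein-coding loci. BAX, FAS, SESN1, ZMAT3 and RRM2B had no element inside a peak. Of all 55 elements, 16 had the letters GATTACA or TGTAATC in their 40-base window, letters common in Alu repeats, and none of these lay in a peak.

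**Figure D5:**
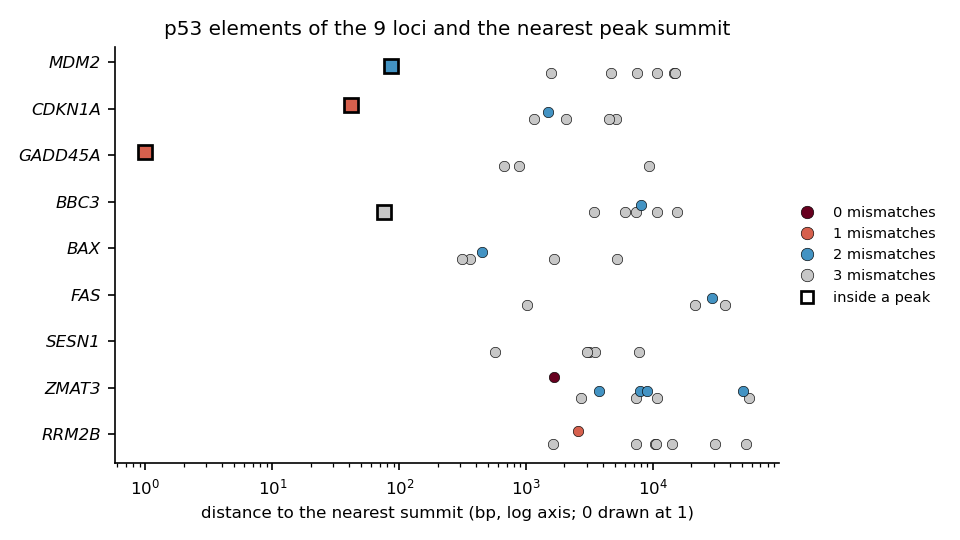
Distance of each p53 element to the nearest summit in bp (x axis, log) for the 9 genes (y axis), coloured by mismatches to the consensus, with squares for elements inside a peak. The 4 squares lie at 0, 42, 76 and 86 bp, and the only element with 0 mismatches, at ZMAT3, lies at 1642 bp.

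Elements close to the consensus also lay outside peaks. The only perfect match of the 9 loci, in intron 1 of ZMAT3 at +1612 bp, was 1642 bp from the nearest summit. In RRM2B intron 1, at +2112 bp, a 1-mismatch element was 2548 bp from the nearest summit, and in FAS intron 1, at +520 bp, a 2-mismatch element was 28866 bp away. In BAX intron 1, at +348 bp, a 2-mismatch element was 446 bp from the TSS summit, and at SESN1 a 3-mismatch element was 572 bp from the 29.3-fold summit. Those of ZMAT3, CDKN1A and SESN1 are printed to set beside the 4 in peaks, with the element in capitals.
ZMAT3, intron 1, chr3:179070178-179070217, minus strand: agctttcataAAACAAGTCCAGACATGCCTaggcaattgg
CDKN1A, across the annotated start of the gene, chr6:36676439-36676478, plus strand: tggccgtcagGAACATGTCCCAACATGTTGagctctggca
SESN1, intron 1, chr6:109009008-109009047, minus strand: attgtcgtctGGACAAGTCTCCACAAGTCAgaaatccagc
A better match to the consensus did not go with a peak at each gene: the ZMAT3 element matched at every position and lay outside, and that of BBC3 had 3 mismatches and lay inside. Over all protein-coding loci, 3.94% of 254 perfect matches lay in a peak. With 1, 2 and 3 mismatches the shares there were 0.684, 0.775 and 0.569%.

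Motifs of other factors were also counted in the member peaks, for promoters and for the liver. The SP/KLF motif GGGCGG was within 100 bp of the summit in 8 of 12 TSS peaks, against 67.7% of all TSS peaks, and CCAAT, the NFY motif, in 15 of 46 peaks (32.6%), against 23.9% of all peaks. The AP-1 motif TGANTCA was in 5 of 46 peaks, among them those of MDM2 intron 1 and GADD45A intron 3 that hold a p53 element (all peaks: 9.27%). Of liver factors, the CEBP motif TTGCNNAA was in 6 of 46 (13.0%; all peaks: 10.96%) and the FOXA motif TGTTTAC in 3 of 46 (6.52%; all peaks: 7.21%). The exact binomial interval of each member share holds the share of all peaks.

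The wider pathway was read in 40 other genes, of which 36 had a TSS peak (90.0%, exact binomial interval 76.3 to 97.2%), against 61.0% of all protein-coding genes. In the GC range of the 9 members the share of protein-coding genes was 76.2%, and no GC range was matched to these 40 genes. Their median TSS fold was 21.5, and 23 of the 36 lay above the protein-coding median of 17.9. By role, 9 of 11 regulators, 6 of 6 cell cycle arrest genes, 9 of 10 apoptosis genes, 5 of 5 repair genes and 7 of 8 metabolic and other targets had one. The p53 inhibitor MDM4 had a fold of 22.2. The highest values were those of TIGAR, a regulator of glycolysis, with 31.7, the translesion polymerases POLK with 31.1 and POLH with 28.6, and the checkpoint kinase CHEK2 with 29.1. The lowest was SFN, a 14-3-3 protein of cell cycle arrest, with 4.76. TP63, TP73, TP53AIP1 and IGFBP3 had no TSS peak.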

How the data were processed

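Of 8 bulk ATAC-seq libraries of HepG2, the peak list of 1, 0.1% FA with cryopreservation, was analysed. The list was matched to that library by its own name and peak names. Per the methods, the authors used cutadapt for trimming, Bowtie2 for mapping to GRCh38, samtools for duplicate removal and MACS2 for peak calling (its version not given in the sources used here). The submitters' processing notes also name bcl2fastq and deepTools 3.5.5. Each peak in the deposited list has a score (10 times the -log10 q, rounded down), the ratio (fold over the local background), the -log10 p and -log10 q and the summit position. No source used here says whether read ends were shifted to the Tn5 cut, which would move summits by a few bases. Peak names point to an alignment filtered for short fragments.

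From these values, summits were placed on the canonical transcripts of GENCODE 44, in the order TSS (1000 bp to either side), first intron, rest of the gene and 20 kb flank. Fragments were solved from the deposited fold and p under a Poisson background, with 1 added to fragments and background in the fold, as assumed for MACS2. For simulated data with known answers, 99.7% of 2981 fragment numbers were recovered, positions were the same for 100% of 1969 peaks and 100% of 400 planted p53 elements were found. Total depth was not given; the median summit held 17 fragments. The p53 element is 2 adjoining RRRCWWGYYY units, both cores required. Alternatives were other TSS windows, transcript starts, flanks, q thresholds and element settings. The rule for named genes took all members, the 4 other pathway genes with the highest TSS fold, those lacking a TSS peak, and neighbours at whose TSS a member peak lay; MDM4, SFN and the markers were named after their values were seen. The 9 members and the lists were chosen with earlier results of these data known. Tools were samtools 1.23.1, pysam 0.24.0, scipy 1.17.1, pandas 2.3.3, numpy 2.4.6 and matplotlib 3.10.9 under Python 3.11.15. With 1 library no test was made, and intervals (exact binomial and Poisson, 95%) cover counting error only. Those of the fold hold the local background fixed. Some items are not reported here.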

Additional observations from a re-analysis of the deposited data

How the results depend on the processing

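Of 107 values recomputed under the alternatives, 99 stayed close to the reported value (a count within 1.5 times, a fold of a gene within its counting interval, the median fold within the range of the members) and 8 did not. Not all of these values could move. A -log10 q of at least 5 kept all 46 member peaks, whose lowest value was 5.12. The range allowed for the median fold was wide, 8.14 to 20.6. The count of 99 is therefore not a measure of robustness. With peaks of a -log10 q of at least 20, the members kept 22 peaks (mean over all genes 2.03), 2 in the first intron, 2 in the rest of the gene and 7 in the flank, and BBC3 lost its TSS peak, so 7 of 9 had one (all genes 50.3%). The cause was not tested beyond the fewer peaks that such a threshold leaves. With the element wholly within 50 bp of the summit, 1 of 46 member peaks had a p53 element (all peaks 0.461%). With a spacer of 0 to 3 bases it was 4 of 46 (all peaks 3.72%), with at most 2 mismatches 3 of 46 (0.268%) and with at most 4 mismatches 5 of 46 (3.48%); in the loci, 3 of 13 elements with at most 2 mismatches (all loci 0.827%) and 6 of 142 with at most 4 (0.672%) lay in a peak. With a TSS window of 500 bp the highest fold of MDM2 was 8.16, since the intron 1 summit is then left out. With the start of any transcript, the TSS fold was 11.7 at BBC3 and 29.3 at SESN1. FAS had no TSS peak under any of the settings. No paired analysis was possible because 1 library was analysed and no groups were compared. Leaving out a replicate could not be done for the same reason. Peaks of 6 to 11 fragments are near what this list can show, and a gene without a peak may still have signal.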
